A study of Mus musculus with 18 samples.

Results

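Immediate early genes are switched on within minutes of a stimulus by transcription factors already present in the cell, with no new protein synthesis, and their transcripts are short-lived. Many of their products are transcription factors: FOS and FOSB pair with JUN and JUNB to form AP-1, and EGR1 and ATF3 also bind DNA. Others are feedback inhibitors, such as DUSP1, a phosphatase that inactivates MAP kinases. In liver they are known for responding to partial hepatectomy, feeding, stress hormones, cytokines and the handling of tissue.

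The genes described here, 10 of 17097 measured, were chosen by name: Fos, Fosb, Jun, Junb, Egr1, Atf3, Ier2, Ier3, Dusp1 and Btg2. All 10 were measured, by 12 probe sets, because Jun and Btg2 have 2 each. Hepatic RNA came from female mice aged 6 to 8 weeks in 2 models of raised transintestinal cholesterol excretion. The chronic model had 5 arrays of NPC1L1-Liver-Transgenic mice and 5 of wild type mice, all C57BL/6. The acute model had 4 arrays of C57BL/6N mice treated with ACAT2 antisense oligonucleotide (ASO) and 4 treated with non-targeting control ASO. The sources used here name no promoter for the transgene and no dose or duration for the ASO. The labels do not say that the numbered samples are separate animals, so a p-value here rests on sample-to-sample spread that could be technical in part or whole. Values are log2 RMA summaries (background-corrected, quantile-normalized probe set levels), read only within 1 model and 1 probe set. A gene is called where the adjusted p of limma, a linear model across all genes with Benjamini-Hochberg adjustment, is under 0.05.

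Hepatocyte markers were high on all arrays, with a mean over 9 genes between 12.43 and 12.77. For Actb, the 3′ control probe set minus the 5′ one, which grows as RNA degrades, ran from 0.89 to 1.26 in transgenic and from 0.83 to 1.02 in wild-type liver, and from 0.92 to 1.18 after ACAT2 ASO and from 0.99 to 1.09 after control ASO. Of the 18 arrays, 3 lay far along the first principal component of their model, namely wild type 2, ACAT2 ASO 1 and control ASO 4.

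None of the immediate early genes was called in either model. Limma called 0 of 10 in transgenic against wild-type liver, where it called 0.228% of all genes, and 0 of 10 after ACAT2 against control ASO, where it called 0.597%. At an unadjusted p under 0.05 the counts were also 0 of 10 in each comparison, against 10.9% and 13.3% of all genes. In transgenic liver 8 of 10 lay below 0, against 47.4% of all genes, with a median log2 change of -0.13 (all genes 0.0058). After ACAT2 ASO 6 of 10 lay below 0, against 50.3%, with a median of -0.12 (all genes -0.00056). The median was -0.06 without wild type 2, and 0.15 after ACAT2 ASO without ACAT2 ASO 1. The test of the difference between the effects of the 2 models also called 0 of 10, against 1.07% of all genes, with 0 of 10 at an unadjusted p under 0.05 (all genes 15.4%). Most of these genes varied more between samples of the same group than most other genes did, as described further on.

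**Figure D1:**
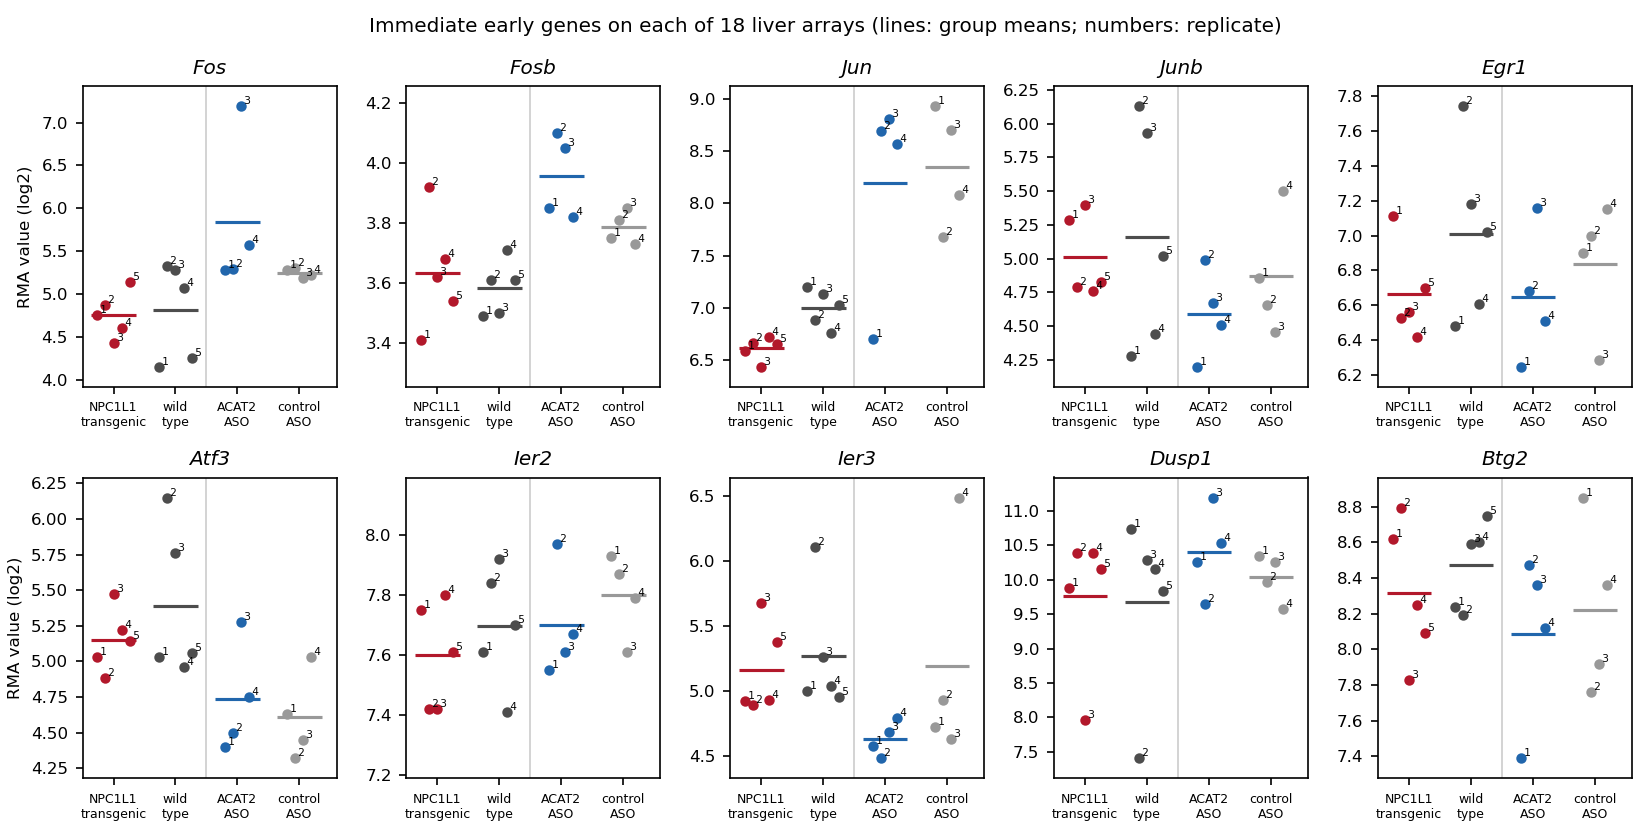
RMA log2 value of each immediate early gene (vertical axes, which differ between panels) on each array of the NPC1L1 transgenic, wild-type, ACAT2 ASO and control ASO groups. Points are arrays with their replicate number and horizontal lines are group means. Jun is the one panel in which the transgenic and wild-type points do not overlap, and single arrays lie far from their group for Fos, Jun, Ier3 and Dusp1.

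Fos, which encodes an AP-1 subunit, read 4.76, 4.88, 4.43, 4.61 and 5.15 in transgenic liver, against 4.16, 5.33, 5.28, 5.07 and 4.26 in wild-type liver. All transgenic values lay within the wild-type range. The log2 change was -0.05 ± 0.31 (SE, limma adjusted p = 0.977). After ACAT2 ASO Fos read 5.29, 5.30, 7.19 and 5.58, against 5.28, 5.31, 5.19 and 5.23 after control ASO. One array, ACAT2 ASO 3, stood 1.61 above the next, while the control ASO values spanned 0.12. The change was 0.59 ± 0.35 (SE, limma adjusted p = 0.498), and 0.14 without ACAT2 ASO 3.

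Fosb, a close relative of Fos, read between 3.41 and 3.92 in transgenic and between 3.49 and 3.71 in wild-type liver. It read between 3.82 and 4.10 after ACAT2 ASO and between 3.73 and 3.85 after control ASO. On all arrays it lay under 4.74, the level below which the lowest 40% of genes lay. Its ASO change of 0.17 (95% interval -0.02 to 0.36) had the smallest p of the 10 genes in that comparison (limma adjusted p = 0.437).

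Jun, the main partner of FOS in AP-1, was the one member whose groups did not overlap in the transgenic model. It read 6.59, 6.67, 6.44, 6.72 and 6.66 in transgenic liver, against 7.20, 6.89, 7.13, 6.76 and 7.03 in wild-type liver. Among all genes 2.22% had groups that did not overlap, and 0.801% had them with the transgenic group lower. After ACAT2 ASO 0 of 10 members had groups that did not overlap, against 9.05% of all genes. The second Jun probe set ran from 6.17 to 6.37 in transgenic and from 6.26 to 6.75 in wild-type liver, and these ranges overlap. The change was -0.39 ± 0.31 (SE, limma adjusted p = 0.719) for the first probe set and -0.18 ± 0.21 for the second. The error pools all 4 groups, and Jun varied far more in the ASO model: its SD was 0.11 for transgenic and 0.18 for wild-type arrays (n = 5), but 1.00 after ACAT2 ASO and 0.57 after control ASO (n = 4). In a fit of the 10 arrays of the transgenic model alone the limma adjusted p was 0.191.

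After ACAT2 ASO Jun read 6.70, 8.69, 8.81 and 8.57, against 8.93, 7.68, 8.70 and 8.08 after control ASO. ACAT2 ASO 1 lay 1.87 below the next array of its group, and the second probe set had the same array lowest, at 6.61 against 7.74 or more. The change was -0.15 ± 0.35 (SE, limma adjusted p = 0.906), and 0.35 without ACAT2 ASO 1.

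Junb, an AP-1 subunit that often restrains JUN, read 5.29, 4.79, 5.40, 4.76 and 4.83 in transgenic liver, against 4.28, 6.13, 5.93, 4.44 and 5.02 in wild-type liver. The wild-type arrays spanned 3.6-fold, with replicates 2 and 3 high, and took in all transgenic values. The change was -0.14 ± 0.31 (SE, limma adjusted p = 0.922). Leaving out wild type 2 gave 0.10, and leaving out wild type 3 gave 0.05. After ACAT2 ASO Junb read 4.20, 4.99, 4.67 and 4.51, against 4.86, 4.66, 4.46 and 5.50 after control ASO (change -0.28 ± 0.35, SE, limma adjusted p = 0.806). It was -0.07 without control ASO 4, the highest array.

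Egr1, a zinc finger transcription factor, read 7.11, 6.53, 6.56, 6.42 and 6.70 in transgenic liver, against 6.48, 7.74, 7.18, 6.61 and 7.02 in wild-type liver. Wild type 2 was highest, and the ranges overlap. The change of -0.34 ± 0.23 (SE) had the smallest p of the 10 genes in the transgenic model (limma adjusted p = 0.634), and it was -0.16 without wild type 2. Egr1 read 6.25, 6.68, 7.16 and 6.51 after ACAT2 ASO, against 6.90, 7.00, 6.29 and 7.15 after control ASO, ranges that nearly coincide (change -0.18 ± 0.25, SE, limma adjusted p = 0.831). Leaving out ACAT2 ASO 1 gave -0.05 and control ASO 4 gave -0.08, while leaving out control ASO 3 gave -0.37 and ACAT2 ASO 3 gave -0.36.

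Atf3, a stress-induced factor that mostly represses, read 5.03, 4.88, 5.47, 5.22 and 5.14 in transgenic liver, against 5.03, 6.15, 5.76, 4.96 and 5.06 in wild-type liver. The upper end of the wild-type range again came from replicates 2 and 3. The change was -0.25 ± 0.22 (SE, limma adjusted p = 0.765), and -0.05 without wild type 2. Atf3 read 4.40, 4.50, 5.28 and 4.75 after ACAT2 ASO, against 4.63, 4.32, 4.45 and 5.03 after control ASO (change 0.12 ± 0.25, SE, limma adjusted p = 0.889). It was -0.06 without ACAT2 ASO 3.

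Ier2, whose nuclear product acts in growth factor responses, was the steadiest of the members read above 4.74. It lay between 7.42 and 7.80 in transgenic and between 7.41 and 7.92 in wild-type liver. It lay between 7.55 and 7.97 after ACAT2 ASO and between 7.61 and 7.93 after control ASO. The 95% intervals of its changes were correspondingly narrow, from -0.32 to 0.13 in transgenic liver and from -0.35 to 0.15 after ACAT2 ASO.

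Ier3, a regulator of cell survival induced by cytokines through NF-κB, read 4.92, 4.89, 5.68, 4.93 and 5.38 in transgenic liver, against 5.00, 6.11, 5.26, 5.04 and 4.95 in wild-type liver (change -0.11 ± 0.30, SE, limma adjusted p = 0.940). In the acute model it read 4.57, 4.48, 4.68 and 4.79 after ACAT2 ASO, against 4.72, 4.93, 4.63 and 6.49 after control ASO. Control ASO 4 lay far above the other 7 arrays of that model. The ASO change of -0.56 ± 0.33 (SE, limma adjusted p = 0.505) was -0.13 without control ASO 4.

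Dusp1, the MAP kinase phosphatase, had the widest spread. It read 9.88, 10.39, 7.97, 10.38 and 10.16 in transgenic liver, against 10.73, 7.41, 10.29, 10.15 and 9.83 in wild-type liver. One array of each group, transgenic 3 and wild type 2, was far lower than the rest, and the groups spanned 5.37-fold and 9.97-fold. The change was 0.07 (95% interval -1.08 to 1.22, limma adjusted p = 0.983). It was 0.52 without transgenic 3 and -0.50 without wild type 2. Dusp1 read 10.26, 9.64, 11.19 and 10.53 after ACAT2 ASO, against 10.34, 9.96, 10.26 and 9.57 after control ASO (change 0.37, 95% interval -0.92 to 1.65, limma adjusted p = 0.866). Leaving out ACAT2 ASO 3 gave 0.11, ACAT2 ASO 2 gave 0.62 and control ASO 4 gave 0.21.

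Btg2, an antiproliferative gene of the BTG and Tob family and a p53 target, read 8.62, 8.79, 7.83, 8.25 and 8.09 in transgenic liver, against 8.24, 8.19, 8.59, 8.60 and 8.75 in wild-type liver. The ranges overlap (change -0.16 ± 0.23, SE, limma adjusted p = 0.875), and the second probe set differed by 0.04, the opposite sign. For the first, leaving out transgenic 3 gave -0.04 and transgenic 2 gave -0.28. In the acute model Btg2 read 7.39, 8.47, 8.36 and 8.12 after ACAT2 ASO, against 8.85, 7.76, 7.92 and 8.36 after control ASO. The ASO change was -0.14 ± 0.26 (SE, limma adjusted p = 0.881), and 0.09 without ACAT2 ASO 1.

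**Figure D2:**
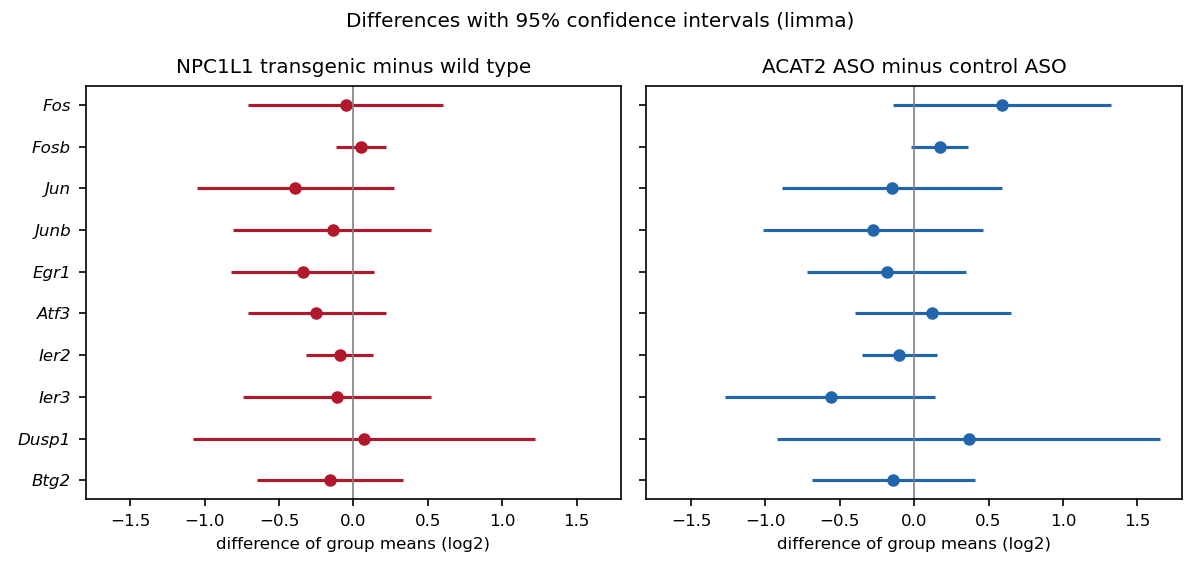
Difference of group means (log2, horizontal axes) of each immediate early gene in transgenic minus wild-type liver (left) and ACAT2 ASO minus control ASO liver (right). Points are limma estimates and bars 95% confidence intervals, all of which include 0; the widest bars are those of Dusp1 and the narrowest those of Fosb.

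The spread between samples of a group was large for most members. The within-group SD, pooled over the 4 groups, ran from 0.13 for Fosb to 0.95 for Dusp1, with a median of 0.46, against 0.11 over all genes. For 8 of the 10 members it exceeded 0.23, the 90th percentile of all genes; the exceptions were Fosb and Ier2. The 4727 genes within 1 log2 unit of the members' median level had a median of 0.13. Dusp1 stood at percentile 99.7 of all genes, and Fos, Jun and Junb each at 98.5.

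**Figure D3:**
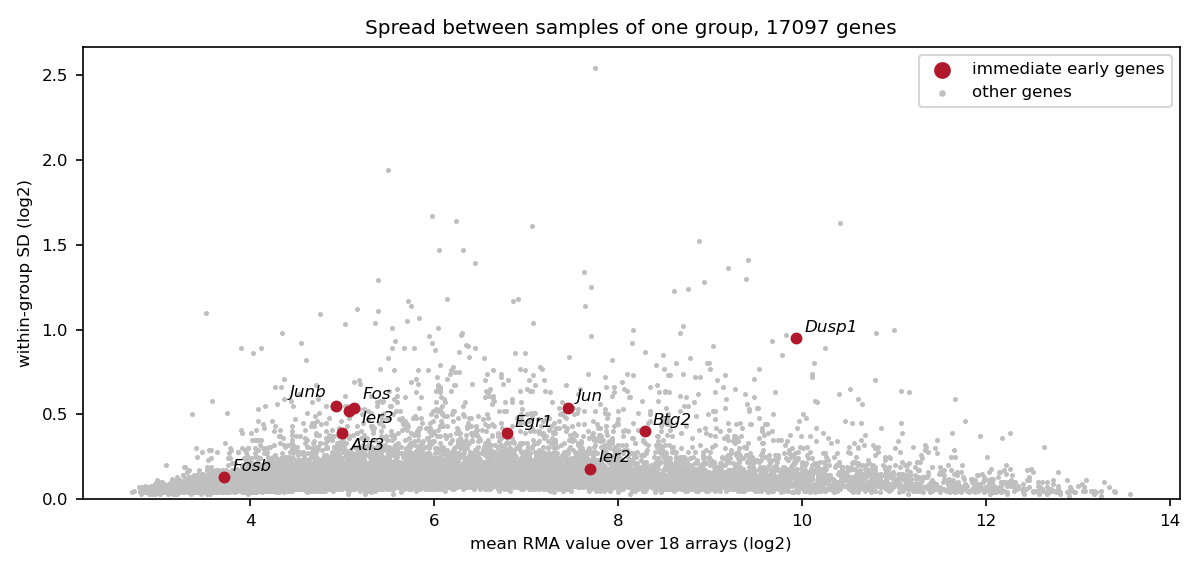
Within-group SD (log2, vertical axis) against mean RMA value over all arrays (log2, horizontal axis) for 17097 genes. The red points are the immediate early genes, of which 8 lie above 0.23, the 90th percentile of all genes. The others, Fosb and Ier2, stand at percentiles 65.5 and 83 of all genes.

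The members did not vary as a single block. Over the 18 arrays, taken as deviations from group means, Pearson's r for the 45 pairs had a median of 0.20 and ran from -0.64 to 0.79. These values describe arrays that share a model, its normalization and their groups. The highest were for Junb with Egr1 (r = 0.79, Spearman's rho = 0.82), Junb with Atf3 (r = 0.78, rho = 0.75) and Egr1 with Atf3 and Atf3 with Ier3 (r = 0.70 each). Without the 3 arrays that stand apart the first 2 were 0.62 and 0.58, and the last 2 were 0.41 and 0.52. Jun and Btg2 went together apart from this group, with r = 0.65 and rho = 0.47 (r = 0.50 without those arrays). Most of the spread of Jun lay in the ASO model. Its SD was 1.00 (ACAT2 ASO) and 0.57 (control ASO), against 0.11 (transgenic) and 0.18 (wild type). The r of this pair within each model is not given here.

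Over the 18 arrays Dusp1 went the other way, with r = -0.64 with Junb (-0.43 without the 3 arrays), -0.61 with Ier3 (-0.53) and -0.47 with Atf3 (-0.02). This differed by model: its r with the mean of the other members was -0.6 over transgenic and wild-type arrays but 0.19 over the ASO arrays. In transgenic, wild-type and control ASO liver, the array with the lowest Dusp1 was the one with the highest Junb, Atf3 and Ier3, namely transgenic 3, wild type 2 and control ASO 4. ACAT2 ASO liver did not show this: there ACAT2 ASO 2 had the lowest Dusp1, at 9.64, with the highest Junb but the lowest Ier3. ACAT2 ASO 3 had the highest Fos, Jun, Egr1, Atf3 and Dusp1 of its group, and ACAT2 ASO 1 lay below the group mean for all 10 members.

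**Figure D4:**
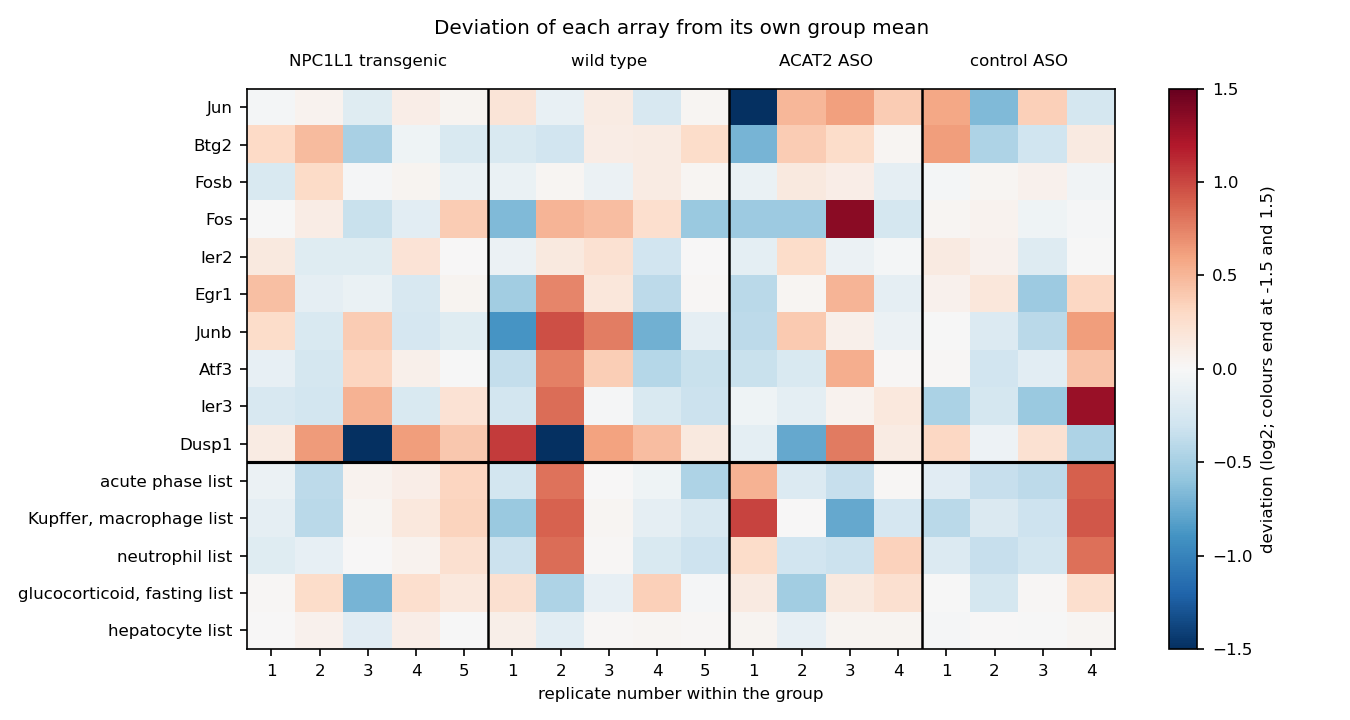
Deviation of each array from its own group mean (log2, colour; red above and blue below, with colours ending at 1.5 either way) for the immediate early genes (upper rows) and the means of 5 other gene lists (lower rows). Columns are arrays of the 4 groups by replicate number. Wild type 2 and control ASO 4 are red for Junb, Atf3, Ier3 and the acute phase, Kupffer cell and neutrophil lists and blue for Dusp1.

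Acute phase genes, which hepatocytes express in inflammation, and markers of macrophages and neutrophils were high on some of these arrays. In bulk liver RNA more cells of a type and more RNA per cell cannot be told apart. The mean of 14 acute phase genes was 11.52 on wild type 2, against 10.73 or less on other wild-type arrays, and 11.65 on control ASO 4, against 10.58 or less on other control ASO arrays. The mean of 13 Kupffer cell and macrophage markers was 9.50 on wild type 2 (others at most 8.64) and 8.79 on control ASO 4 (others at most 7.64). The mean of 7 neutrophil markers was 6.16 and 6.10 on these arrays (others at most 5.34 and 5.08). The neutrophil list moved unevenly: in wild-type liver the SD was 1.66 for Lcn2, but 0.15 for Camp and 0.05 for Mmp8. Lcn2 is also on the glucocorticoid and fasting list, and 3 of the 7 genes lay below the 40th percentile of level. ACAT2 ASO 1 also had the highest acute phase and Kupffer means of its group, 11.36 and 9.30, yet its Ier3 read 4.57 and its Atf3 4.40. Transgenic 3, with the highest Ier3 of its group, had an acute phase mean of 11.06 within the group's range of 10.62 to 11.33. The part of these cell types in the values of Ier3, Junb and Atf3 was not tested.

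The 2 transgenic-model arrays with low Dusp1 also had the lowest means of 10 glucocorticoid and fasting response genes. These were 8.16 on transgenic 3, where other transgenic arrays had 8.89 or more, and 8.18 on wild type 2, where other wild-type arrays had 8.52 or more. Their hepatocyte marker means were the lowest of their groups as well, 12.43 and 12.45. ACAT2 ASO 2, with the lowest Dusp1 of its group, likewise had the group's lowest glucocorticoid and fasting mean, 8.99, where the others had 9.64 or more. Its hepatocyte marker mean was also the lowest, 12.6 against 12.76 or more. On control ASO 4, where Dusp1 was lowest in its group at 9.57, the glucocorticoid and fasting mean was instead the group's highest, 9.67. Among these arrays the Actb 3′ minus 5′ value was the highest of its group on transgenic 3 (1.26) and ACAT2 ASO 2 (1.18). It was the lowest of its group on wild type 2 (0.83), and 1.04 on control ASO 4. The same measure for Gapdh was the group's highest on transgenic 3 (0.28), ACAT2 ASO 2 (0.34) and control ASO 4 (0.21), with 0.19 on wild type 2. A link of Dusp1 with these lists or with these RNA measures was not tested.

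Promoter windows were held for 8 of the 10 members, all but Egr1 and Ier2, in RefSeq (build GRCm38.p6). Each had 250 bases before and 50 after the start. They were searched on both strands for the cyclic AMP response element TGACGTCA, bound by CREB and ATF family factors, and for its shorter core TGACG, which overlaps it and was added after values were seen. The whole element was found in 2 members, Dusp1 and Btg2, against 1.79% of all windows, and the core in 6, against 20.8%. The AP-1 element TGANTCA and the CArG box, the core of serum response elements, were found in 0 of the 8 windows, against 7.81% and 1.63% of all windows. The GC box GGGCGG was found in 7, against 35.7%. A match is a description of letters and not a bound site. Bases outside these windows were not searched, so the lack of a match covers only the windows of those 8 members.

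The 180 bases before the start are shown 5′ to 3′ for Dusp1 and Btg2, which hold the whole element, and for Junb, Atf3 and Ier3, each highest on the arrays with the lowest Dusp1 in transgenic, wild-type and control ASO liver. Capitals mark the element or its core. They lie at chr17:26508473-26508652 (minus strand) for Dusp1, chr1:134079156-134079335 (minus) for Btg2, chr8:84978749-84978928 (minus) for Junb, chr1:191183334-191183513 (minus) for Atf3 and chr17:35821533-35821712 (plus) for Ier3.
Dusp1: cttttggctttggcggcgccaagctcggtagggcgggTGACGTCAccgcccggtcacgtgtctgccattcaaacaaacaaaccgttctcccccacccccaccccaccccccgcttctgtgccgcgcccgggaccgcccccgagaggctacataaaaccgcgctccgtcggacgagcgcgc
Btg2: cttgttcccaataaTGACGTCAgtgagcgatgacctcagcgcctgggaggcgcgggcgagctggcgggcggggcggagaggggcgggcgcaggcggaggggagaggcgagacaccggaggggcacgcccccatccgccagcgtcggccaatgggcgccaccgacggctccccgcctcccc
Junb: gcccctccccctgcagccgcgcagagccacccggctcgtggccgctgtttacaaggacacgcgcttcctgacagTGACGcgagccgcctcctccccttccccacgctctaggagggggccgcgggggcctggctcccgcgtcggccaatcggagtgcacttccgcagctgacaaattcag
Atf3: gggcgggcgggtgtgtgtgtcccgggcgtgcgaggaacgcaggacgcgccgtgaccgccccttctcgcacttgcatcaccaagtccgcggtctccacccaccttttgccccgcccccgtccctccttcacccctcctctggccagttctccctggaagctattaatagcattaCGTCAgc
Ier3: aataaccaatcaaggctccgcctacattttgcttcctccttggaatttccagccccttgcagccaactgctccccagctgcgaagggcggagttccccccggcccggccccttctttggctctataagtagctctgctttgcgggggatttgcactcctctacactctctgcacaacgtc

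In Dusp1 the element spans bases -143 to -136 and in Btg2 bases -166 to -159 from the start. The core lies at bases -106 to -102 in Junb and, on the other strand, at -7 to -3 in Atf3, while the Ier3 window holds neither. Dusp1 has another copy of the core at -191 to -187, before the bases shown. The members that share the whole element, Dusp1 and Btg2, had r = 0.33 over the 18 arrays.

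Genes outside the 10 with the most similar pattern were ranked by r with the mean deviation of the members over 18 arrays, among genes above the 40th percentile of level. The first 6 were Vmn1r65, a vomeronasal receptor gene (r = 0.79, rho = 0.81), Ppp1r15a, the stress-induced phosphatase subunit GADD34 (r = 0.74, rho = 0.78), and Maff, a small MAF factor that is itself an immediate early gene (r = 0.74, rho = 0.50). Epn2, an endocytosis gene (r = 0.72, rho = 0.78), Lncpint, a p53-induced noncoding RNA (r = 0.71, rho = 0.68), and Cobl, an actin nucleator (r = 0.70, rho = 0.71), followed. For Maff r was 0.35 over transgenic and wild-type arrays and 0.87 over the ASO arrays, while the other 5 had r of 0.63 or more in each model. Without the 3 arrays that stand apart r lay between 0.58 for Cobl and 0.89 for Epn2. Vmn1r65 varied little, with a within-group SD of 0.09. The 6 were picked for their high r, so their values by model and on fewer arrays are no separate evidence. Among the 10259 genes ranked 1.35% had r over 0.5. Of 33 other immediate early genes measured 3 did, but 5 of the 33 lay below the 40th percentile of level and were not ranked. The members themselves followed this pattern unevenly: r with the mean of the other members ran from -0.31 for Dusp1 to 0.6 for Egr1. For Dusp1 it was negative in the transgenic model only, as given above.

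Among 33 other immediate early genes measured, limma called 0 in each comparison, with 1 higher and 3 lower at an unadjusted p under 0.05 in transgenic liver and 0 higher and 1 lower after ACAT2 ASO. Among all genes 10.9% and 13.3% reached that p in these comparisons. The list's median change was -0.08 in transgenic liver and -0.03 after ACAT2 ASO. Zfp36l1, an mRNA decay factor, had means of 9.52 ± 0.20 (transgenic) and 9.95 ± 0.20 (wild type; SD, n = 5 each), with a limma adjusted p of 0.306. Trib1, a pseudokinase gene, had means of 6.18 ± 0.19 (ACAT2 ASO) and 6.52 ± 0.10 (control ASO; SD, n = 4 each), with a limma adjusted p of 0.0881. High spread was shared by this list: 16 of the 33 had a within-group SD above the 90th percentile of all genes, and the median was 0.22. Gadd45g, a growth arrest gene, had 1.23, above the SD of Dusp1.

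Of 18 upstream kinases and transcription factors measured 0 were called, with 5 higher and 0 lower at an unadjusted p under 0.05 after ACAT2 ASO, where 13.3% of all genes reached that p in either direction. Map2k1, a kinase that activates ERK, had means of 7.95 ± 0.10 (ACAT2 ASO) and 7.71 ± 0.10 (control ASO; SD, n = 4 each), with a limma adjusted p of 0.109. Map3k5, a stress kinase upstream of JNK and p38, had 8.24 ± 0.29 (ACAT2 ASO) and 7.70 ± 0.26 (control ASO), with a limma adjusted p of 0.179. In transgenic liver, where 10.9% of all genes did, 1 was higher and 2 were lower, among them Elk4, an SRF partner, at 8.44 ± 0.12 (transgenic) and 8.61 ± 0.07 (wild type; SD, n = 5 each), with a limma adjusted p of 0.223.

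Of 21 feedback phosphatases and inhibitors 0 were called. In transgenic liver 15 of them lay below 0 (median -0.18; all genes 47.4%) and 3 were lower at an unadjusted p under 0.05 (all genes 10.9% in either direction). Dusp4, a MAP kinase phosphatase, had means of 3.86 ± 0.10 (transgenic) and 4.04 ± 0.08 (wild type; SD, n = 5 each), with a limma adjusted p of 0.239. Spred2, an inhibitor of RAS signalling, had 6.62 ± 0.16 (transgenic) and 6.94 ± 0.07 (wild type), with a limma adjusted p of 0.285. After ACAT2 ASO 11 lay above 0 and 10 below (all genes 50.3% below). At an unadjusted p under 0.05, 1 was higher (all genes 13.3% in either direction). Heat shock genes lay above 0 for 8 of 9 in each comparison, with 0 called. Among all genes 47.4% lay below 0 in transgenic liver and 50.3% after ACAT2 ASO. Hsph1, an HSP110 chaperone, had means of 8.16 ± 0.39 (ACAT2 ASO) and 7.45 ± 0.51 (control ASO; SD, n = 4 each), with a limma adjusted p of 0.168.

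The other lists also had 0 genes called in each comparison. Median changes in transgenic liver and after ACAT2 ASO were 0.11 and -0.04 for 14 integrated stress response genes, 0 and -0.06 for 10 p53 targets, 0.15 and 0.13 for 10 glucocorticoid and fasting response genes, and 0.05 and 0.04 for 14 acute phase genes. Among cell type markers they were -0.01 and 0.41 for Kupffer cells and macrophages, -0.03 and 0.18 for neutrophils, 0.07 and -0.01 for lymphocytes, and -0.01 and 0 for sinusoidal endothelium. They were -0.02 and 0 for stellate cells, -0.05 and -0.17 for cholangiocytes, 0.02 and -0.02 for erythroid cells, and -0.01 and 0.05 for hepatocytes. After ACAT2 ASO all 13 Kupffer cell and macrophage markers lay above 0, with 2 at an unadjusted p under 0.05 (all genes 13.3%). All 7 neutrophil markers did too, also with 2. Among all genes 50.3% lay below 0. Without ACAT2 ASO 1, left out after seeing the data, 9 of the 13 lay above 0 with a median of 0.05, and 6 of the 7 with a median of 0.06. Without control ASO 4 all 13 and all 7 lay above 0, with medians of 0.65 and 0.22. Without both of these arrays all 13 lay above 0 with a median of 0.39, and 6 of the 7 with a median of 0.22.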

How the data were processed

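The deposited log2 values are RMA probe set summaries made by the authors, per the submitters' processing notes, which state neither the version nor the definition of probe sets. Array medians were 4.61 to 4.65 for the transgenic model and 4.38 to 4.40 for the ASO model, and whether the models were normalized together is unknown. Per the labels' protocols, 250 ng of Trizol-extracted RNA was labelled by the Affymetrix 3′-IVT method. The number of arrays limits the precision.

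Of 45141 probe sets, 104 controls were left out and 28898 carried 1 gene symbol (551 had several and 15588 none). A gene was its probe set with the highest mean, which gave 17097 genes with no filter. Group means over all 18 arrays were fitted with limma 3.58.1 in R 4.3.3, two-sided, with Benjamini-Hochberg adjustment over all genes and a threshold of 0.05. The procedure was tested on simulated data. SE and 95% intervals are limma's moderated values.

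The members, the 16 other lists and the tests were chosen with earlier results of these data known. The text names the members, up to 3 genes per list with the smallest p in a comparison, and the 6 genes of most similar pattern. Gadd45g and the pairs of members singled out were chosen after their values were seen. Alternatives covered filtering, normalization, probe set summary, variance, array weights, blocking and left-out arrays. Figures used matplotlib 3.10.9.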

Additional observations from a re-analysis of the deposited data

Results flagged for a closer look

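In 8 of 48 combinations of probe set and group, 1 array lay far from the others by Dixon's test, where the nominal rate is about 1 in 20. The combinations are not independent, because Jun and Btg2 each count with 2 probe sets. Most flags lay on wild type 2, ACAT2 ASO 1 or control ASO 4, which stand apart over all probe sets. The share flagged over all probe sets is not given here. After ACAT2 ASO, replicate 3 read 7.19 for Fos (next 5.58), and replicate 1 read 6.70 and 6.61 for the 2 Jun probe sets (next 8.57 and 7.74) and 6.57 for the second Btg2 probe set (next 6.87). For Ier3, control ASO 4 read 6.49 (next 4.93) and wild type 2 read 6.11 (next 5.26). For Dusp1, transgenic 3 read 7.97 (next 9.88) and wild type 2 read 7.41 (next 9.83). No member's change differed between the models past the threshold (lowest limma adjusted p = 0.553, Fos).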

How the results depend on the processing

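No alternative called a member: the count stayed at 0 of 10 for both comparisons and for the difference of the 2 effects, also without each array in turn. The median member change in transgenic liver ran from -0.22 to -0.06 and after ACAT2 ASO from -0.19 to 0.15 over the left-out arrays. The cause of the reversals below was not tested.

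With array weights Dusp1 in transgenic liver became -0.08, and after ACAT2 ASO Jun became 0.04 and Btg2 0.01. Without the 3 arrays that stand apart, chosen after seeing the data, transgenic liver had 0.07 for Fos, 0.10 for Junb, 0.10 for Ier3 and -0.50 for Dusp1, and ACAT2 ASO liver had 0.26 for Jun, 0.06 for Junb, 0.05 for Egr1 and 0.14 for Btg2. Over single left-out arrays the transgenic changes ran from -0.22 to 0.07 for Fos, -0.02 to 0.11 for Fosb, -0.36 to 0.10 for Junb, -0.24 to 0.10 for Ier3 and -0.50 to 0.52 for Dusp1, and with no reversal from -0.45 to -0.34 for Jun, -0.47 to -0.16 for Egr1, -0.35 to -0.05 for Atf3, -0.16 to -0.04 for Ier2 and -0.28 to -0.04 for Btg2. The ACAT2 ASO changes ran from -0.37 to 0.35 for Jun, -0.06 to 0.26 for Atf3 and -0.29 to 0.09 for Btg2, and with no reversal from 0.14 to 0.77 for Fos, 0.12 to 0.21 for Fosb, -0.42 to -0.07 for Junb, -0.37 to -0.05 for Egr1, -0.19 to -0.06 for Ier2, -0.75 to -0.13 for Ier3 and 0.11 to 0.62 for Dusp1.

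The count of all genes called moved far more. In transgenic liver it was 39, with 20 (without wild type 3) to 58 (without wild type 5) over left-out arrays and 13 when fitted on the 10 arrays of that model. After ACAT2 ASO it was 102, with 42 (without ACAT2 ASO 3) to 203 (without ACAT2 ASO 2), 17 on the arrays of that model alone, 465 with array weights and 46 without the 3 arrays. For the difference of the 2 effects it was 183, with 69 to 262, 102 after quantile normalization within each model, 112 with arrays centred on their medians, 369 with array weights and 58 without the 3 arrays.

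Whether replicate numbers pair the samples is not known. Same-numbered deviations correlated at -0.48 to 0.17 in the transgenic model and -0.48 to 0.47 in the ASO model. So few values cannot settle it. With the replicate block the counts of genes called were 2 in transgenic liver, 18 after ACAT2 ASO and 12 for the difference, and members called stayed at 0. With 4 or 5 arrays a group, the 95% intervals of Fos, Junb, Ier3 and Dusp1 include changes of 0.5 on the log2 scale in either direction in transgenic liver, so changes of that size are not excluded.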
